A study of Mus musculus with 16 samples.

Results

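The distal convoluted tubule is the short stretch of the nephron that follows the thick ascending limb, and 10 genes of its salt, magnesium and calcium transport were followed here across whole kidneys of mice given cisplatin, with or without a precursor of NAD. The genes were Slc12a3, Pvalb, Trpm6, Trpv5, Calb1, Slc8a1, Wnk1, Wnk4, Klhl3 and Cnnm2, matched by symbol, and all 10 were found among the 23935 symbols of the table. The rule lists them by symbol for their known role in this segment, but it was set with earlier results of these data known, so their counts are not independent of the data.

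The study sequenced total RNA of whole kidney from wild-type (WT) mice in 4 groups of 4 libraries. The groups were PBS (buffered saline, the control), cisplatin, cisplatin with NMN (nicotinamide mononucleotide) and cisplatin with NR (nicotinamide riboside). Both precursors of NAD were injected ahead of cisplatin, and kidneys were taken 3 days after the cisplatin injection. No group received a precursor without cisplatin, the labels give no dose, strain, sex or age, and they do not say that each library came from a separate animal. The p-values therefore measure the spread between these libraries, which may be technical.

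Sodium chloride enters the cells of this segment through the thiazide-sensitive cotransporter encoded by Slc12a3. WNK kinases activate the cotransporter by way of the kinases SPAK and OSR1, and KLHL3, together with the scaffold CUL3, marks WNK kinases for degradation. Magnesium is taken up through TRPM6 channels, with CNNM2 needed for its transport, while calcium enters through TRPV5, is carried by calbindin (Calb1) and leaves through the sodium-calcium exchanger encoded by Slc8a1. Pvalb encodes parvalbumin, a calcium-binding protein that marks the early part of the segment, and renal wasting of magnesium is a well-known side effect of cisplatin in patients.

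On GRCm38, with GENCODE vM21, Slc12a3 lies at chr8:94329201-94366214 on the plus strand, Pvalb at chr15:78191114-78206400 on the minus strand and Klhl3 at chr13:58000228-58113592 on the minus strand. Wnk1 lies at chr6:119923969-120038672 on the minus strand and Wnk4 at chr11:101260567-101277409 on the plus strand. Trpm6 lies at chr19:18749983-18892511 and Cnnm2 at chr19:46761596-46880192, both on the plus strand. Trpv5 lies at chr6:41652173-41680769 on the minus strand, Calb1 at chr4:15881264-15908064 on the plus strand and Slc8a1 at chr17:81373105-81738377 on the minus strand. Trpm6, Slc8a1, Wnk1, Wnk4 and Klhl3 overlap another annotated gene. An overlapping gene lies on the opposite strand for Wnk4 (Gm11615), Slc8a1 (AC122399.1 and Gm11096), Trpm6 (Gm24190) and Wnk1 (Gm16199). Since no strand setting is given, reads of these overlaps cannot be told apart. The values are per gene, so the full-length and the kidney-specific transcripts of Wnk1 are not separated.

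Promoter sequences are shown for the genes on which the comparisons turn, namely 3 of the 4 whose levels differed most between cisplatin and PBS, and Wnk4, whose level did not pass the test. Each is the 250 bases before a RefSeq transcript start (GRCm38.p6), written in the direction of transcription. Capitals mark any match, on either strand, to 4 short motifs. TATAAA is the TATA box of basal transcription. GTTAAT is one arm of the site bound by the factor HNF1. AGAACA is one arm of the site bound by steroid receptors such as the mineralocorticoid receptor. GGGCGG is the GC box, which reads as its reverse complement where the match is on the other strand. No marked match overlaps another motif. The windows are chr8:94328958-94329207 (plus strand) for Slc12a3, chr15:78206401-78206650 (minus strand) for Pvalb, chr13:58113648-58113897 (minus strand) for Klhl3 and chr11:101260317-101260566 (plus strand) for Wnk4.
Slc12a3: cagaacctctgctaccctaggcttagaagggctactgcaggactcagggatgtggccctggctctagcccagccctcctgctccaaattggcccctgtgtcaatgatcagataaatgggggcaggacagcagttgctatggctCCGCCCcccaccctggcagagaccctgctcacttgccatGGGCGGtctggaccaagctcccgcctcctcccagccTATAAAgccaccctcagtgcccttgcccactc
Pvalb: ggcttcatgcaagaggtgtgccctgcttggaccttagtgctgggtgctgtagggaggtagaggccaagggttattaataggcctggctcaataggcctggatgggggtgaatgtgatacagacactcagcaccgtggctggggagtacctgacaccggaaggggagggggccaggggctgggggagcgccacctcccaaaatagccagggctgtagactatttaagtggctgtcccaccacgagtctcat
Klhl3: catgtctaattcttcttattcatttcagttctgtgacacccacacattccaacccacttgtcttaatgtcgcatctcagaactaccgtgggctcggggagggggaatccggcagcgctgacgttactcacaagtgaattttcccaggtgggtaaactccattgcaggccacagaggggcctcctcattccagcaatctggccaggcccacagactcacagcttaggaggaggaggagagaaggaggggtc
Wnk4: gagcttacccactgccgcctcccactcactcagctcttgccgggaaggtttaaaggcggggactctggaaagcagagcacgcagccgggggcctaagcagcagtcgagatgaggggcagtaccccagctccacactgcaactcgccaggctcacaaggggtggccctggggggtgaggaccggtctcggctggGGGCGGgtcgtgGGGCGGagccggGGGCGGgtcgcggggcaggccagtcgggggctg
The Slc12a3 window held 1 TATAAA, which begins 32 bases before the start, and 2 GC boxes. The Wnk4 window held 3 GC boxes and no TATAAA, and the windows shown for Pvalb and Klhl3 held no match to any of the 4 motifs. RefSeq windows matched 9 of the 10 genes, with 10 windows in all (Calb1 had none), and 5 of the 10 windows held no match. Among 32851 mouse windows of this length, 12.4% held the TATA box, 6.43% the HNF1 arm, 16.1% the steroid receptor arm and 32.7% the GC box. These matches describe the letters of the windows and were not tested against the expression values.

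Values are TPM (transcript abundance scaled to a fixed total per library), which are scaled for gene length, so levels of different genes can be set side by side. TPM keeps no read depth, so the depth of each library is unknown and no counting interval can be given. Library totals of the listed values ran from 860428 to 903678 TPM, and between 11535 and 12549 genes reached 1 TPM. Mitochondrially encoded mRNA took 25.03% to 34.03% of the listed TPM with PBS, 15.6% to 17.6% with cisplatin, 22.7% to 28.3% with NMN and 22.1% to 30.3% with NR. Ribosomal protein mRNA took 5.33% to 6.47% with PBS and 14.4% to 16.1% with cisplatin. Since every library is scaled to one total, these shares bear on all values below. For the distal convoluted tubule genes named at the start, calls after median-of-ratios scaling are given where they differ. For the lists of related genes and their counts, only results without that scaling are given, so their dependence on it is not shown.

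With PBS, Slc12a3 was the most abundant of the 10 genes, with a mean of 336 ± 84.0 TPM (SD, n = 4). Calb1 (135 ± 20.3), Wnk1 (132 ± 18.7) and Wnk4 (114 ± 25.9) followed, and the ranges of neighbours in this order overlapped. Below them came Pvalb (24.8 ± 4.49) and Cnnm2 (15.4 ± 1.60), each separated from its neighbours. Klhl3 (8.84 ± 1.05), Slc8a1 (7.9975 ± 2.26) and Trpv5 (6.52 ± 1.01) overlapped in turn, and Trpm6 was lowest at 2.23 ± 0.567 TPM. With cisplatin the order was different, with Wnk4 first (105 ± 23.1 TPM), Wnk1 next (58.6 ± 3.67 TPM) and Calb1, Slc12a3 and Cnnm2 between 7.96 and 16.4 TPM on average. Slc12a3 stood first again with NMN and with NR, with no overlap with the gene below it.

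**Figure D1:**
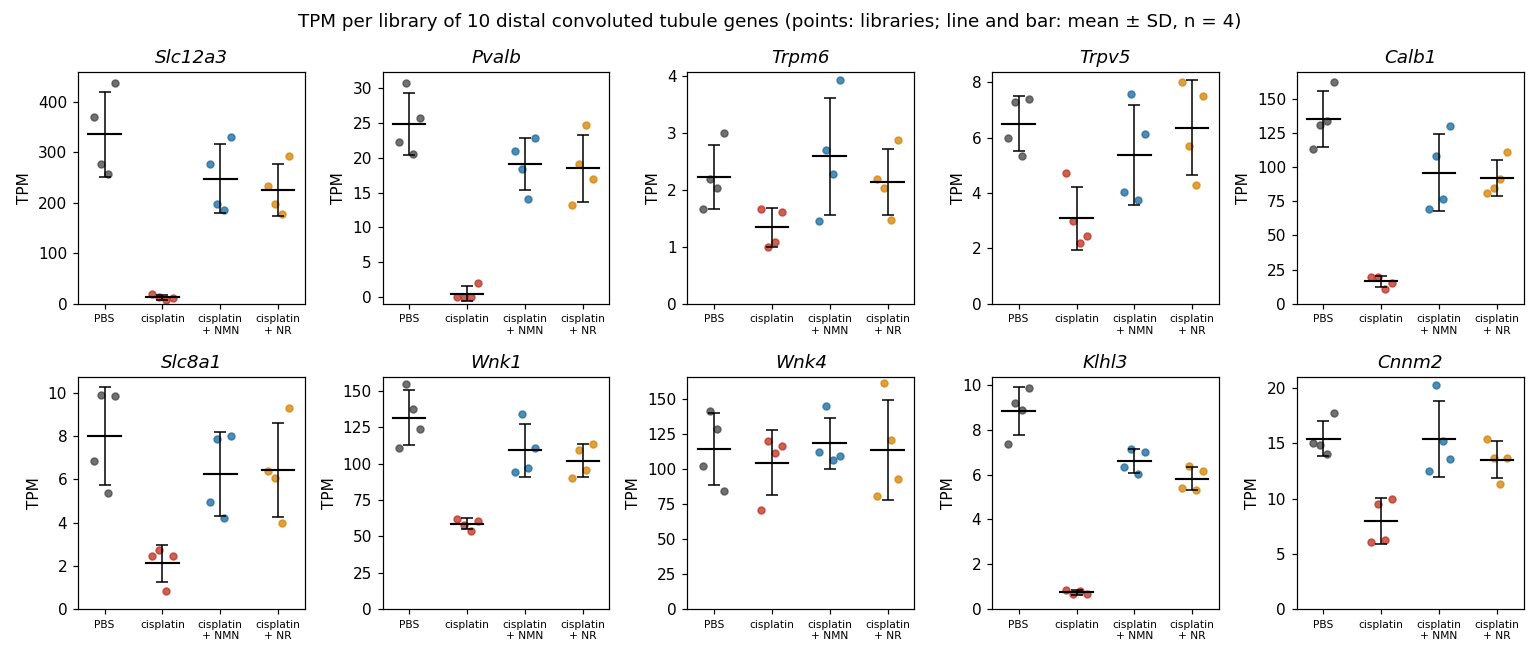
TPM of each of the 10 genes in the 16 libraries, by group, with a linear axis for each gene; points are libraries, and the line and bar are the mean ± SD of 4 libraries. Slc12a3 lies between 257 and 438 TPM with PBS and between 6.79 and 19.4 TPM with cisplatin, while the groups of Wnk4 overlap.

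Cisplatin was compared with PBS first, to ask which of the genes differed with the drug alone. Of the 10 genes, 8 were lower with cisplatin and 0 were higher at an adjusted p under 0.05, where 18.6% of all 12960 genes tested were called lower, 40.7% higher and 59.4% in either direction. The test was limma on log2(TPM + 1), with Benjamini-Hochberg adjustment over all genes tested. The groups did not overlap for the same 8 genes, against 50.8% of all genes tested in either direction. The median change of the 10 genes was -1.34 on the log2(TPM + 1) scale, while that of all genes tested was 0.27 (0.0042 after median-of-ratios scaling). Over all genes 5278 were called higher and 2415 lower, and after median-of-ratios scaling 3813 and 3689. In whole kidney, fewer distal convoluted tubule cells and less of these RNAs per cell cannot be told apart.

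Slc12a3, the sodium chloride cotransporter, read 369.6, 278, 257 and 438 TPM in the PBS libraries and 19.4, 12.7, 6.79 and 11.5 TPM with cisplatin. Every cisplatin library lay far below every PBS library. The cisplatin mean was 3.75% of the PBS mean, a 26.6-fold lower level, with a log2 change of -4.68 (SE 0.26, limma adjusted p = 1.04e-10).

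Klhl3, the substrate adaptor of the ligase that degrades WNK kinases, read 7.38, 9.21, 8.89 and 9.86 TPM with PBS and 0.85, 0.65, 0.82 and 0.66 TPM with cisplatin. All 4 cisplatin libraries were below 1 TPM and the groups were far apart. The log2 change was -2.49 (SE 0.13, limma adjusted p = 3.26e-11), and the cisplatin mean was 8.43% of the PBS mean. Low values make the log2(TPM + 1) scale understate this change.

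The genes Wnk1 and Wnk4 differed from each other, where the Wnk1 values pool its full-length and kidney-specific transcripts. Wnk1 read 111, 154, 138 and 124 TPM with PBS and 62.2, 57.7, 53.8 and 60.5 TPM with cisplatin. Its groups did not overlap, and it fell by 1.15 on the log2 scale (SE 0.13, limma adjusted p = 3.98e-07), to 44.5% of the PBS mean. Wnk4 read 102, 142, 129 and 84.4 TPM with PBS and 70.6, 120.5, 111 and 116 TPM with cisplatin. Its groups overlapped almost wholly, and the log2 change of -0.13 (95% interval -0.58 to 0.32) did not pass the test (limma adjusted p = 0.633). A change of Wnk4 within that interval was not detectable with these libraries. Over 17 alternatives its log2 change ranged from -0.44 to 0.0501, and 0 of them passed (limma adjusted p from 0.112 to 0.964).

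Pvalb, parvalbumin, read 22.2, 30.7, 20.55 and 25.7 TPM with PBS, and with cisplatin it was listed at 0 in 3 libraries and at 2.11 TPM in the fourth. The groups were separate, with 1 cisplatin library above the listed 0. Its log2(TPM + 1) change was -4.26 (SE 0.30, limma adjusted p = 1.62e-09), a value that depends on the pseudocount because of the values listed at 0.

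The calcium genes were lower to different extents. Calb1, the cytosolic calcium carrier, read 113, 131, 134 and 162 TPM with PBS and 19.7, 19.8, 11.1 and 14.9 TPM with cisplatin. These groups were well apart, and Calb1 fell by 2.99 (SE 0.20, limma adjusted p = 6.55e-10), to 12.1% of the PBS mean. Slc8a1, the exchanger of the basolateral side, ranged from 5.36 to 9.90 TPM with PBS and from 0.85 to 2.73 TPM with cisplatin, and fell by 1.54 (SE 0.27, limma adjusted p = 8.45e-05). Trpv5, the channel of the apical side, ranged from 5.35 to 7.41 TPM and from 2.19 to 4.73 TPM, and fell by 0.90 (SE 0.23, limma adjusted p = 0.00239). No cisplatin library of either gene reached the lowest PBS library.

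Of the magnesium genes, Cnnm2 ranged from 14.06 to 17.7 TPM with PBS and from 6.08 to 9.99 TPM with cisplatin, without overlap, and fell by 0.90 (SE 0.17, limma adjusted p = 0.000227). Trpm6, the channel itself, read 1.67, 2.20, 2.03 and 3.01 TPM with PBS and 1.67, 1.00, 1.09 and 1.61 TPM with cisplatin. Its groups met at 1.67 TPM, and the log2 change of -0.46 (95% interval -0.91 to -0.01) missed the threshold (limma adjusted p = 0.0762). The call for Trpm6 depended on the scaling: the adjusted p was 0.0108 after median-of-ratios scaling and 0.022 without mitochondrially encoded genes, in a range of 0.0108 to 0.2115 over 16 alternatives. The 8 calls held under every alternative tried.

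**Figure D2:**
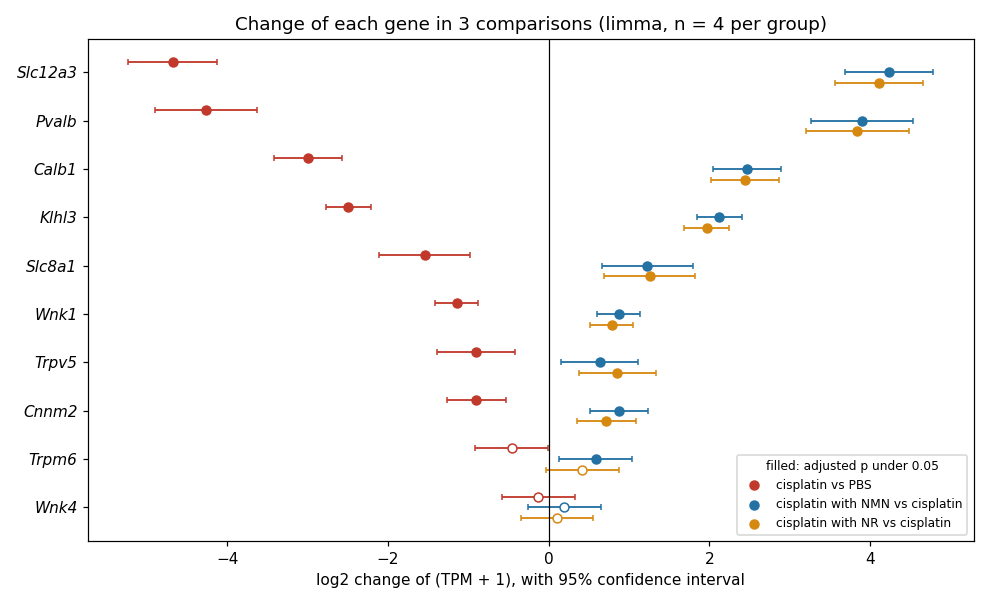
Change of each of the 10 genes on the log2(TPM + 1) scale in 3 comparisons (cisplatin against PBS, and each precursor group against cisplatin), with 95% intervals from limma; filled points have an adjusted p under 0.05. Slc12a3, Pvalb, Calb1 and Klhl3 have the largest changes of the 10 in all 3 comparisons, and the intervals of Wnk4 include 0.

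Markers of other cell types were set beside these genes, and their sums did not all move in the same direction. The 10 proximal tubule markers summed to between 47323 and 54905 TPM with PBS and between 4145 and 7019 TPM with cisplatin, and the 6 intercalated cell markers to between 161 and 239 and between 85.8 and 118 TPM. The 8 markers of principal cells and the connecting tubule, the neighbouring segment that also makes Calb1, Trpv5 and Slc8a1, summed to 3671 to 5132 TPM with PBS and 1304 to 1894 TPM with cisplatin, without overlap. Klk1 made up most of this sum, with means of 3668 TPM with PBS and 995 TPM with cisplatin. Aqp2 (168 and 384 TPM) and Fxyd4 (37.0 and 104 TPM) went the other way. Aqp3, Scnn1b, Scnn1g, Hsd11b2 and Avpr2 had lower means with cisplatin. The 6 endothelial markers summed to 140.15 to 276 and 60.6 to 125 TPM, and the 5 red blood cell markers to 1876 to 3820 (PBS) and 8.2 to 33.9 TPM (cisplatin). The sums of the 6 thick ascending limb markers overlapped, at 590 to 1349 TPM with PBS and 282 to 776 TPM with cisplatin. Umod made up most of this sum, with means of 568 TPM with PBS and 401 TPM with cisplatin. Cldn10 (means of 137 and 21.1 TPM) and Kcnj1 (50.8 and 20.8 TPM) were lower with cisplatin in every library. Slc12a1 and Cldn16 had lower means with cisplatin, and Cldn19 had a higher one (9.66 and 17.96 TPM). The 5 tubular injury markers summed to 3.28 to 14.9 TPM with PBS and 4036 to 4470 TPM with cisplatin. Parvalbumin is also made in skeletal muscle and the exchanger in several kinds of muscle. The 10 skeletal muscle markers summed to 0.60 to 2.71 TPM with PBS and 1.93 to 9.06 TPM with cisplatin, with Myh2 and Myh4 listed at 0 in all libraries. The 5 heart muscle markers summed to 1.9 to 7.46 and 3.73 to 5.61 TPM, and the 5 smooth muscle markers to 47.6 to 106 TPM with PBS and 34.3 to 47.3 TPM with cisplatin, without overlap. The 5 adipose markers summed to 25.15 to 119 TPM with PBS and 199.6 to 394 TPM with cisplatin. The part of these cell types in the results was not tested.

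Genes around the 10 were taken from lists of the same pathways. Among all genes tested, 18.6% were called lower with cisplatin, 40.7% higher and 59.4% in either direction. Of the 18 genes of salt handling, 16 were tested (Wnk2 and Wnk3 were below the minimum), 10 were lower and 2 higher with cisplatin, with a median change of -0.62. The potassium channel subunit Kcnj16 went from 147 ± 14.9 to 38.1 ± 5.10 TPM (log2 change -1.92, limma adjusted p = 1.36e-09). Bsnd, the barttin subunit of chloride channels, was lower as well (-1.60, limma adjusted p = 3.58e-07). Cul3, the partner of KLHL3, fell by 0.52 (limma adjusted p = 0.00327). Oxsr1, which encodes OSR1, was higher (0.79, limma adjusted p = 7.53e-05), whereas Stk39, which encodes SPAK, was at 7.23 ± 0.527 and 7.84 ± 1.91 TPM (limma adjusted p = 0.721). Sgk1, an aldosterone-induced kinase, was at 61.7 ± 13.98 and 62.3 ± 8.71 TPM (limma adjusted p = 0.887).

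Of the 16 other magnesium genes, 15 were tested (Kcna1 was below the minimum), 5 were lower and 3 higher, with a median change of -0.13. The shares over all genes tested were 18.6% lower, 40.7% higher and 59.4% in either direction. Egf, whose product stimulates TRPM6, had the steepest change of the list, from 209 ± 90.6 to 8.41 ± 2.90 TPM (log2 change -4.44, limma adjusted p = 3.98e-08). Pcbd1, a cofactor of HNF1, fell by 1.14 (limma adjusted p = 4.64e-08), and Trpm7, the near relative of Trpm6, fell by 1.07 (limma adjusted p = 1.19e-05). Slc41a1, a magnesium transporter, was higher (1.07, limma adjusted p = 1.51e-06). Umod, made mainly in the thick ascending limb, was at 568 ± 298 and 401 ± 194.5 TPM (limma adjusted p = 0.359).

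Of the 12 other calcium genes, 9 were tested (Atp2b2, Slc8a2 and Slc8a3 were below the minimum), and 6 were lower and 3 higher, with a median change of -1.02. Again, 18.6% of all genes tested were lower and 40.7% higher. Pth1r, the receptor of parathyroid hormone, fell by 2.62 (limma adjusted p = 2.46e-13), and Kl, klotho, fell by 3.61 (limma adjusted p = 9.94e-11). S100g, a second calcium-binding protein, went from 3164 ± 311 to 1169 ± 207 TPM (log2 change -1.45, limma adjusted p = 4.03e-07). Of 10 further genes of the distal nephron, 9 were tested (Erbb4 was below the minimum), 8 were lower and 0 higher, with a median change of -1.66. Among them Emx1 fell by 2.31 (limma adjusted p = 4.94e-10), Tmem52b by 3.70 (limma adjusted p = 1.06e-09) and Klk1, tissue kallikrein, by 1.91 (limma adjusted p = 6.25e-08). Slc12a1, the cotransporter of the thick ascending limb, was at 89.6 ± 33.5 and 41.7 ± 22.7 TPM and fell by 1.19 (limma adjusted p = 0.0181).

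**Figure D3:**
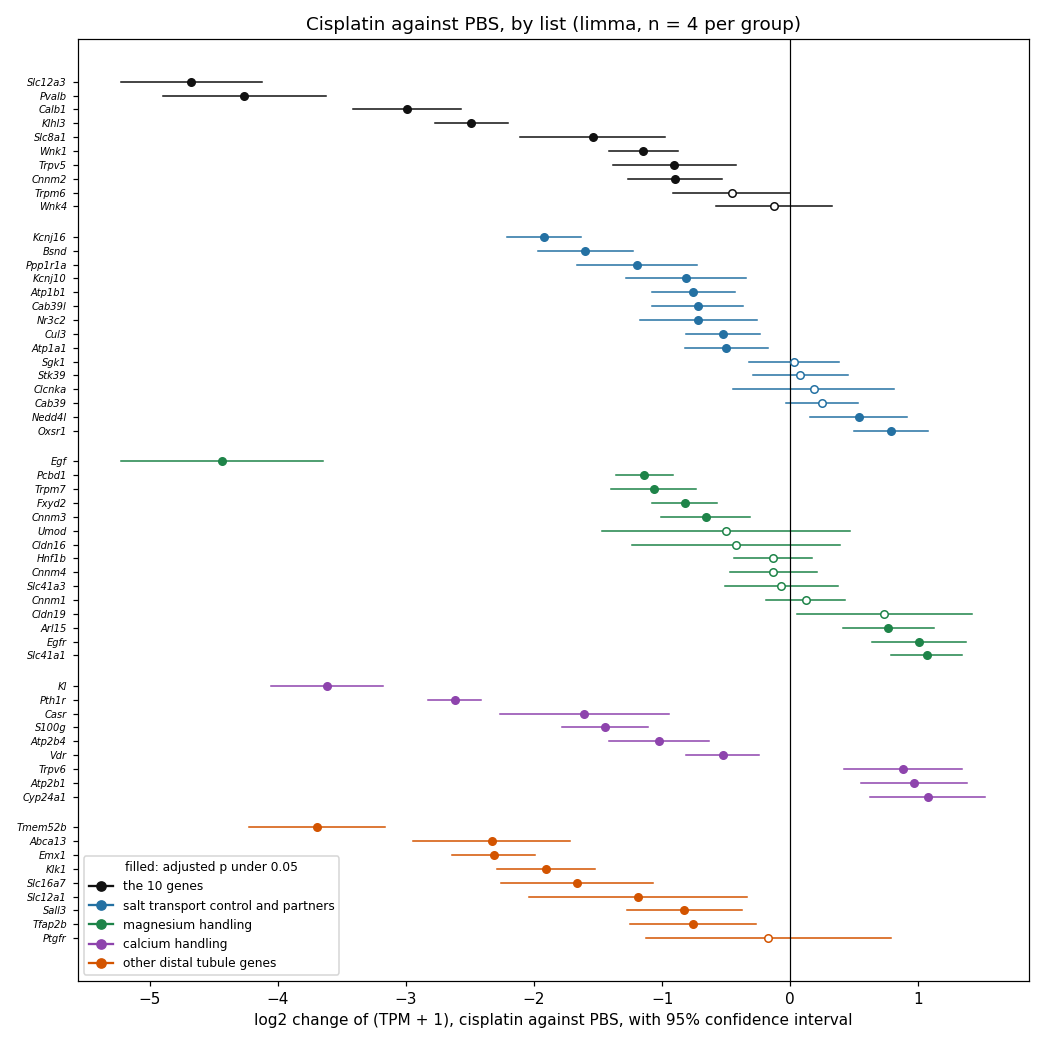
Change between cisplatin and PBS of the tested genes on the log2(TPM + 1) scale, grouped by list (1 gene of the salt list is not shown), with 95% intervals from limma; filled points have an adjusted p under 0.05. Most called genes lie left of 0, with Oxsr1, Slc41a1 and Cyp24a1 among those to the right.

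Each precursor group was then compared with cisplatin alone, to see which of the genes differed when NMN or NR had been given. These comparisons share the cisplatin libraries with each other and with the comparison above, so a high or low cisplatin library moves all of them. With NMN, 9 of the 10 genes were higher than with cisplatin alone and 0 were lower, where 15.1% of all genes tested were called higher, 34% lower and 49.1% in either direction. With NR, 8 of the 10 were higher and 0 lower, where 14.4% of all genes were called higher, 32.2% lower and 46.6% in either direction. The groups did not overlap for 7 genes with NMN (44.3% of all genes) and 7 with NR (41.8% of all genes). The median change of the 10 genes was 1.05 with NMN and 1.06 with NR, while all genes tested had medians of -0.23 and -0.20. Over all genes, 1954 were higher and 4405 lower with NMN (2888 and 3047 after median-of-ratios scaling), and 1870 and 4174 with NR (2752 and 2904).

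Slc12a3 read 278, 199, 185 and 331 TPM with NMN and 234, 198, 177 and 294 TPM with NR. All 8 libraries lay above the highest cisplatin library. The log2 change from cisplatin was 4.24 with NMN (SE 0.26, limma adjusted p = 1.07e-09) and 4.11 with NR (SE 0.26, limma adjusted p = 1.80e-09). Klhl3 read 6.32, 7.15, 6.02 and 6.99 TPM with NMN and 5.42, 6.36, 5.33 and 6.15 TPM with NR, again all above cisplatin. Its changes were 2.13 (limma adjusted p = 7.25e-10) and 1.96 (limma adjusted p = 2.60e-09), each with an SE of 0.13.

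Wnk1 read 94.2, 134, 97.2 and 111 TPM with NMN and 90.2, 109.65, 95.3 and 113 TPM with NR. These libraries all lay above the cisplatin libraries, with log2 changes of 0.87 (limma adjusted p = 1.90e-05) and 0.79 (limma adjusted p = 6.92e-05). Wnk4 read 113, 145, 106 and 109.5 TPM with NMN and 80.7, 161, 121 and 92.9 TPM with NR. Its groups overlapped with cisplatin, and its changes of 0.20 (95% interval -0.26 to 0.65, limma adjusted p = 0.472) and 0.10 (95% interval -0.35 to 0.55, limma adjusted p = 0.725) did not pass the test.

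Pvalb read 20.9, 18.4, 14.1 and 22.75 TPM with NMN and 13.2, 19.15, 24.65 and 16.9 TPM with NR. Every one of these libraries was above the single cisplatin library that was not listed at 0. Its log2(TPM + 1) changes were 3.90 (limma adjusted p = 1.81e-08) and 3.84 (limma adjusted p = 2.42e-08). Calb1 read 69.5, 108, 76.5 and 130.1 TPM with NMN and 81.3, 84.5, 91.3 and 111 TPM with NR. All were above cisplatin, with changes of 2.47 (limma adjusted p = 2.74e-08) and 2.45 (limma adjusted p = 3.60e-08).

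Slc8a1 ranged from 4.22 to 7.99 TPM with NMN and from 3.99 to 9.29 TPM with NR, without overlap with cisplatin, and its changes were 1.23 (limma adjusted p = 0.00105) and 1.26 (limma adjusted p = 0.000973). Cnnm2 ranged from 12.5 to 20.3 TPM and from 11.3 to 15.4 TPM, also without overlap, with changes of 0.88 (limma adjusted p = 0.000421) and 0.72 (limma adjusted p = 0.00250). The NR call for Cnnm2 was lost (adjusted p = 0.0811) when PBS 1, cisplatin 1 and cisplatin 3, the libraries of lowest array weight, were left out together, and held in 17 of 18 alternatives. Trpv5 and Trpm6 overlapped with cisplatin in both precursor groups.

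Trpv5 ranged from 3.75 to 7.58 TPM with NMN and from 4.28 to 8 TPM with NR, with changes of 0.63 (limma adjusted p = 0.0289) and 0.85 (limma adjusted p = 0.00528). Trpm6 ranged from 1.46 to 3.93 TPM and from 1.48 to 2.88 TPM, with changes of 0.59 (limma adjusted p = 0.0316) and 0.42 (95% interval -0.03 to 0.87, limma adjusted p = 0.121, not called). The NMN calls of both genes were near the threshold. For Trpv5 the call was lost without cisplatin 3, cisplatin 4, NMN 2 or NMN 4 and with only the 2 groups in the fit, and its adjusted p ranged from 0.00548 to 0.106 over 17 alternatives. For Trpm6 it was lost without cisplatin 2, cisplatin 3, NMN 2 or NMN 4, with only the 2 groups in the fit, and without PBS 1, cisplatin 1 and cisplatin 3 together, in a range of 0.00698 to 0.127 over 16 alternatives. With NR, Trpm6 passed after median-of-ratios scaling (adjusted p = 0.0383, in a range of 0.0383 to 0.291 over 17 alternatives).

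The lists around the 10 genes gave counts in both directions, except that of the further distal genes. Over all genes tested, 15.1% were higher and 34% lower with NMN than with cisplatin, and 14.4% and 32.2% with NR. Against cisplatin, NMN had 9 salt genes higher and 1 lower of 16 tested, and NR had 7 higher and 2 lower. Magnesium genes were 4 higher and 3 lower with NMN and 5 higher and 3 lower with NR, of 15 tested. Calcium genes were 6 higher and 2 lower with NMN and 6 higher and 1 lower with NR, of 9 tested. The further distal genes were 6 higher and 0 lower with each precursor, of 9 tested. Egf was higher by 3.95 with NMN (limma adjusted p = 4.38e-07) and by 3.78 with NR (limma adjusted p = 8.85e-07), whereas Slc12a1 did not pass the test with NMN (0.89, limma adjusted p = 0.0794) or NR (0.58, limma adjusted p = 0.251). The proximal tubule markers summed to 37461 to 45376 TPM with NMN and 31481 to 38622 TPM with NR, and the tubular injury markers to 487 to 1272 and 1001 to 1177 TPM.

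The precursor groups were set against PBS to see how far the genes stood from the PBS level. With NMN, 0 of the 10 genes were called, where 6% of all genes were called in either direction, 5.89% higher and 0.116% lower. Calb1, Wnk1 and Klhl3 had an unadjusted p under 0.05, and the limma adjusted p of these was 0.169, 0.293 and 0.148. After median-of-ratios scaling Klhl3 passed (adjusted p = 0.0353, in a range of 0.0353 to 0.381 over 17 alternatives). The NMN mean was 73.9% of the PBS mean for Slc12a3, 74.9% for Klhl3, 71.1% for Calb1, 76.8% for Pvalb and 82.9% for Wnk1. For Cnnm2 it was 99.8%, for Wnk4 104% and for Trpm6 116.5%. The log2 change of Slc12a3 was -0.44 with a 95% interval of -0.99 to 0.11, and differences within it were not detectable with this fit. The fit did not use the replicate number, and each NMN library read 71.6% to 75.6% of the PBS library with its number. Klhl3 was the only one of the 10 whose NMN and PBS libraries did not overlap, where 10.2% of all genes did not.

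With NR, 1 of the 10 genes was called against PBS, where 1.21% of all genes were called lower, 8.79% higher and 10% in either direction. That gene was Klhl3, at 65.8% of the PBS mean (log2 change -0.53, SE 0.13, limma adjusted p = 0.0157). The call was lost without PBS 4 (adjusted p = 0.0606), without NR 1 (0.0521), without NR 3 (0.0551) and without NR 3 and NR 4 together (0.119), the NR libraries with the highest adipose sums, and its adjusted p ranged from 0.00190 to 0.119 over 18 alternatives. Klhl3 and Calb1 did not overlap with PBS, where 14.8% of all genes did not. Calb1 stood at 68.2% of the PBS mean (-0.55, limma adjusted p = 0.0993), Slc12a3 at 67.2% (-0.57, limma adjusted p = 0.211) and Wnk1 at 77.5% (-0.36, limma adjusted p = 0.0868). The calls for these depended on the alternative: after median-of-ratios scaling Calb1 (adjusted p = 0.0275) and Wnk1 (0.00833) passed beside Klhl3. The fit did not use the replicate number, and for Slc12a3 each NR library read 63.2% to 71.2% of the PBS library with its number. Over all genes 1139 were higher and 157 lower with NR (1044 and 478 after median-of-ratios scaling).

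Among the genes of the lists, Cyp24a1, the enzyme that breaks down active vitamin D, was higher than PBS with NMN (0.87, limma adjusted p = 0.0176) and with NR (1.5, limma adjusted p = 9.54e-05). It was also higher with cisplatin alone (1.07, limma adjusted p = 0.000315). Emx1 was lower than PBS with NMN (-0.62, limma adjusted p = 0.0190), and Pcbd1 (-0.38, limma adjusted p = 0.0279) and Pth1r (-0.38, limma adjusted p = 0.0173) were lower with NR.

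NMN and NR were then compared with each other. Of the 10 genes 0 were called, and 0 of all 12960 genes were (0% in either direction). No member had an unadjusted p under 0.05, the smallest being 0.245 for Klhl3, while 370 of all genes did. The groups overlapped for all 10 genes, and did not for 1.64% of all genes. Over the 10 genes, the difference of NMN from NR was 0.12 for Slc12a3 (95% interval -0.43 to 0.67), 0.05 for Pvalb (-0.58 to 0.69) and -0.22 for Trpv5 (-0.70 to 0.26). These intervals do not show that the precursors act alike.

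A ratio of a gene pair within a library cancels the scaling of that library, apart from the pseudocount, and 6 pairs were compared in 4 contrasts, 24 tests in all. With 4 libraries a group, the two-sided exact permutation test cannot give a p under 0.0286. The tests at that smallest p had an adjusted p of 0.0571 over the 24, so none passed. Slc12a3 per Slc12a1 was 1.93 ± 0.52 with PBS and -1.56 ± 0.86 with cisplatin (log2 ratio of TPM + 1, mean ± SD, n = 4), and the 4 cisplatin libraries were all below the PBS libraries (exact permutation p = 0.0286). Klhl3 per Cul3 went from -2.64 ± 0.09 to -4.61 ± 0.35, and Trpv5 per Calb1 from -4.18 ± 0.20 to -2.09 ± 0.25, both with the groups apart (exact permutation p = 0.0286 each). Wnk4 per Wnk1 was -0.22 ± 0.22 with PBS and 0.80 ± 0.42 with cisplatin, also apart (exact permutation p = 0.0286).

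Trpm6 per Trpm7 was -2.88 ± 0.27 with PBS and -2.27 ± 0.18 with cisplatin, with the groups apart (exact permutation p = 0.0286). This separation depends on the pseudocount, because Trpm6 values were low. Trpm6 and Trpm7 read 3.01 and 21.6 TPM in PBS 4, and 1.00 and 9.78 TPM in cisplatin 2. Without a pseudocount the ratio of PBS 4 is therefore above that of cisplatin 2, and the groups overlap. In the NMN and NR groups the ratios of Slc12a3 to Slc12a1 were 1.80 ± 0.52 and 1.98 ± 0.48, and those of Wnk4 to Wnk1 were 0.12 ± 0.11 and 0.11 ± 0.40. Slc12a3 per Pvalb was 3.69 ± 0.42 with PBS and 3.27 ± 1.02 with cisplatin (exact permutation p = 0.543), and with a pseudocount of 0.1 the difference turned to 2.04, because Pvalb was listed at 0 in 3 libraries.

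**Figure D4:**
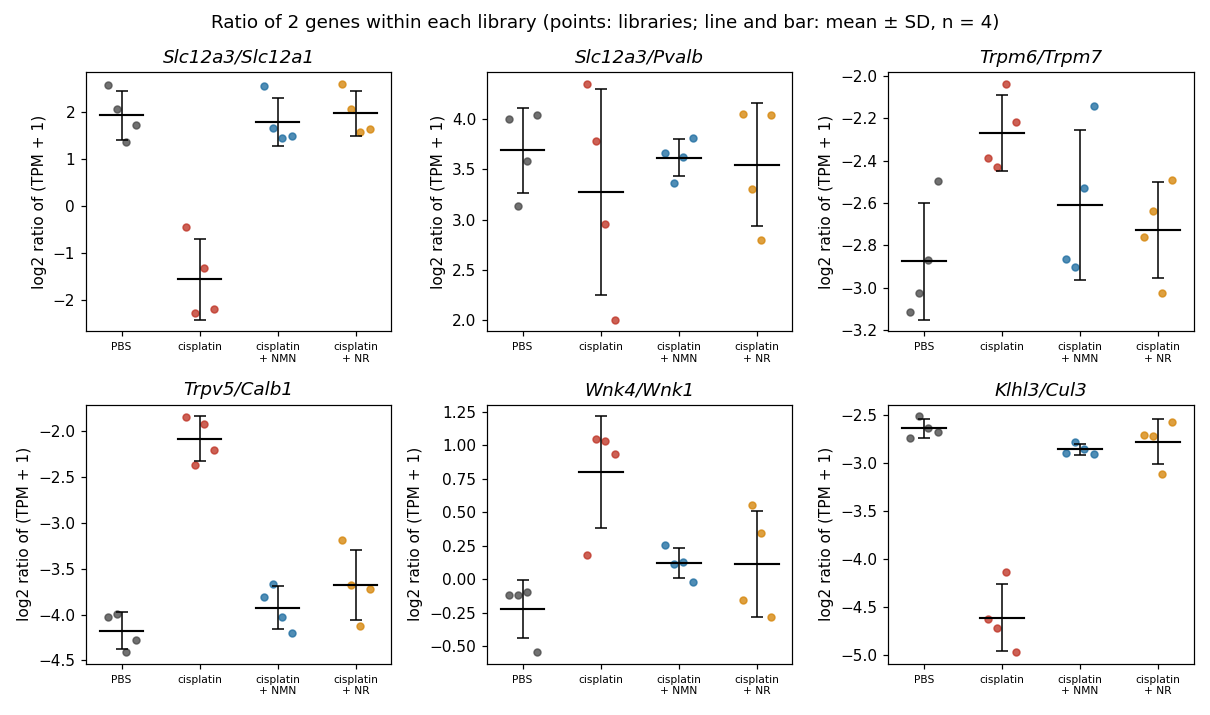
Log2 ratio of TPM + 1 of 6 gene pairs within each library, by group; points are libraries, and the line and bar are the mean ± SD of 4 libraries. Slc12a3 per Slc12a1, Klhl3 per Cul3 and Trpv5 per Calb1 have cisplatin libraries apart from PBS, while Slc12a3 per Pvalb overlaps.

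The tested genes were ranked by how closely their values followed those of Slc12a3 over the 16 libraries, as the mean absolute difference of log2(TPM + 1) from their PBS means. Of 8241 candidates the closest were Cyp2e1 (0.24), Acsm2 (0.25), G6pc (0.26), Fam151a (0.26) and Slc34a3 (0.27). Pvalb followed at rank 37 (0.44), Calb1 at rank 97 (0.61), Klhl3 at rank 175 (0.77) and Wnk4 at rank 3415 (1.56). The measure describes these 16 libraries, in which the 4 groups set most of the spread.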

How the data were processed

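Whole-kidney RNA was measured in 16 libraries, 4 per group, with groups taken from the sample titles. The authors deposited TPM for 23982 entries; the submitters' processing notes name the builds GRCm38 and mm10 and the tools STAR (2.4.1d), Trim Galore, DESeq2 (1.10.1) and HTSeq (0.6.1). What each tool did, the annotation, gene lengths and strandedness were not given in the sources used here. Entries that shared a symbol were summed (47 symbols), and 1 entry without a symbol kept its ID, which left 23935. In TPM a loss of abundant transcripts inflates the rest of a library, and the depth per sample is unknown.

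A gene was tested if 4 or more libraries reached 1 TPM (12960 genes). All 10 members passed, with 12 (Klhl3) to 16 libraries at 1 TPM or more. limma 3.58.1 (R 4.3.3, statmod 1.5.0; trend and robust) was fitted to log2(TPM + 1) of all 16 libraries with a mean per group (12 residual degrees of freedom), and p-values were adjusted by Benjamini-Hochberg over all tested genes. Rose, fell, higher and lower of a named gene refer to an adjusted p under 0.05. The fit was tested on simulated data. Ratios were compared with two-sided exact permutation tests (70 arrangements). Columns of other samples were 0.

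The members and lists were chosen with earlier results of these data known. From each list the 2 to 4 genes with the smallest adjusted p in cisplatin against PBS were named, plus Sgk1, Trpm7, Cul3, Stk39, Slc12a1, Umod, Egf and S100g always; Cyp24a1 was named after its values were seen. For 1 gene of the salt list the rule's values are not reported here, and it stays in the counts. Followers of Slc12a3 were the 5 closest genes of at least 5 TPM with PBS. Alternatives were median-of-ratios scaling, plain limma moderation, a minimum of 5 TPM or none, leaving out mitochondrial mRNAs, a pseudocount of 0.1, only the groups compared, the replicate number as a term, each library left out, and, chosen after seeing the data, sets of libraries left out.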

Additional observations from a re-analysis of the deposited data

Results flagged for a closer look

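Of 40 groups of 4 libraries tested for a library far from the other 3, 3 stood out, and chance alone gives about 1 in 20. Pvalb read 2.11 TPM in cisplatin 4 and was listed at 0 in the other 3 cisplatin libraries. Any single value above 0 would stand out beside these, so the 1 in 20 does not apply to Pvalb. Slc8a1 read 0.85 TPM in cisplatin 3, while the other cisplatin libraries read 2.44 to 2.73 TPM. Wnk4 read 145.41 TPM in NMN 2, and the other NMN libraries read 106.25 to 112.65 TPM. Leaving out any of these libraries changed no call for the gene concerned in cisplatin against PBS or NMN against cisplatin.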

How the results depend on the processing

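Depth is unknown from TPM, 4 libraries a group limit every interval, and genes under a few TPM (Trpm6, and Klhl3 and Pvalb with cisplatin) rest on low values. In cisplatin against PBS the count of members called stayed within 1.5 times its value under each alternative run, as did the counts for NMN and NR against cisplatin. With a minimum of 5 TPM, Trpm6 was not tested. Against PBS, the members called with NMN went from 0 to 1 after median-of-ratios scaling (Klhl3) and were 0 to 1 with single libraries left out (Calb1 without NMN 4). With NR they went from 1 to 3 after median-of-ratios scaling, 2 without mitochondrially encoded genes, 2 with only the 2 groups in the fit, 0 without NR 3 and NR 4, and 0 to 2 with single libraries left out. The cause was not tested. Over all genes, NMN against PBS went from 778 to 511 without NMN 3, NR against PBS from 1296 to 698 without NR 3 and NR 4, and NMN against NR from 0 to 1 with only the 2 groups in the fit.

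Replicate numbers are shared between groups, but the correlations of same-numbered libraries (deviations from group means over all tested genes) were not all over 0.1, so the numbers were not taken to pair the libraries. They were 0.0697 to 0.225 for NMN and NR, where 8 of 8 libraries correlated best with their own number, 0.0483 to 0.287 for NMN and PBS (7 of 8), 0.0495 to 0.270 for NR and PBS (6 of 8) and -0.130 to 0.0262 for cisplatin and PBS (0 of 8). With the replicate block, 3 members were called in NR against PBS (Slc12a3 with limma adjusted p = 0.0260, Wnk1 with 0.0412, and Klhl3), and Trpm6 passed in cisplatin against PBS (0.0441); the block changed no other member's call.

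Changes of sign touched only values that had not passed the test. The Slc12a3 to Pvalb difference became 2.04 (cisplatin against PBS), -2.10 (NMN against cisplatin) and -2.17 (NR against cisplatin) with a pseudocount of 0.1. Wnk4 in NMN against PBS became -0.0029 after median-of-ratios scaling. Without PBS 1, cisplatin 1 and cisplatin 3, Wnk4 was 0.036 in cisplatin against PBS, -0.0112 in NMN against cisplatin and -0.105 in NR against cisplatin. Without NR 3 and NR 4, Trpv5 was 0.0568 and Wnk4 0.0273 in NR against PBS. With single libraries left out, Wnk4 ranged from -0.26 to 0.0501 in cisplatin against PBS, -0.0804 to 0.25 in NR against cisplatin, -0.0663 to 0.18 in NMN against PBS, -0.21 to 0.12 in NR against PBS and -0.0538 to 0.28 in NMN against NR. Against PBS, Cnnm2 ranged from -0.15 to 0.0651 and Trpm6 from -0.0399 to 0.29 with NMN, and Trpm6 from -0.15 to 0.0701 and Trpv5 from -0.16 to 0.10 with NR. In NMN against NR the ranges were -0.14 to 0.16 for Calb1, -0.0868 to 0.20 for Pvalb, -0.029 to 0.26 for Slc12a3, -0.20 to 0.15 for Slc8a1, -0.0002 to 0.33 for Trpm6 and -0.0156 to 0.15 for Wnk1.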

Other observations

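Same-numbered libraries of PBS and of the precursor groups had closely related Slc12a3 values. The order of the libraries by Slc12a3 was 4, 1, 2 and 3 in PBS, in NMN and in NR, and 1, 2, 4 and 3 with cisplatin. Each NMN library held 71.6% to 75.6% of the Slc12a3 TPM of the PBS library with its number, and each NR library 63.2% to 71.2%, although the PBS libraries themselves spanned 1.70-fold. The spread of these percentages differed among the other members. It was narrow for Slc8a1 with NMN (72.4% to 80.95%) and for Calb1 with NR (64.5% to 71.9%), and wider for Calb1 with NMN (57.1% to 82.4%) and for Pvalb with NMN (59.9% to 94.3%) and NR (59.4% to 119.95%). The summed adipose markers of libraries 1 to 4 were 29.9, 119, 55.9 and 25.15 TPM with PBS and 29.75, 102, 50.9 and 25.16 TPM with NMN, and 23.15, 105, 375 and 229.8 TPM with NR. The labels do not say what a shared number stands for, so whether same-numbered libraries are independent of each other cannot be told.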
